A study of Homo sapiens with 6 samples.

Results

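The 10 genes described here encode polypeptide N-acetylgalactosaminyltransferases (GALNT enzymes), which start mucin-type O-glycans. They are GALNT1, GALNT2, GALNT3, GALNT4, GALNT5, GALNT6, GALNT7, GALNT11, GALNT12 and GALNT14. They were chosen by family name, each through the RefSeq transcript in the name of its probe set. The array also holds 8 other GALNT genes, which are not among them. All 10 were on the array, each with 1 probe set, among 1259 probe sets in all. The samples were HCT-15 cells, an established human colon cancer cell line, either treated with 5-aza-2'-deoxycytidine (3 arrays) or left untreated (3 arrays). Once incorporated into DNA in place of cytosine, the drug traps DNA methyltransferases, so that methylation is lost as cells divide. The sources used here give neither its dose and duration nor whether the replicates came from separate cultures, so the p-values measure the spread between these arrays, which may be technical. The submitters asked how glycan genes change in cells that show more sialyl Lewis x, a glycan that E-selectin binds, after the drug.

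GALNT enzymes sit in the Golgi and move N-acetylgalactosamine (GalNAc) from UDP-GalNAc onto serine and threonine residues of proteins. That first sugar, the Tn antigen, is then built up into core structures that can carry sialyl Lewis x. The isoenzymes share a catalytic domain and, in nearly all of them, a lectin domain that binds GalNAc, and they differ in the peptides they accept. Some act on bare peptide, while others act mainly where a neighbouring site already carries GalNAc. In the gut, O-glycans cover the secreted and membrane-bound mucins of the epithelium.

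Values are log2 RMA values, in which 1 unit is a doubling of signal, and array medians lay between 5.81 and 5.92. Arrays of 1 group correlated at 0.9974 or more over all probe sets, and arrays of different groups at 0.9817 to 0.9844. One array, untreated replicate 3, has a title that says treated, against its source name and treatment entry. Every title, also those of the treated arrays, carries the word control, so the titles are not a sure guide to the groups. Untreated replicate 3 correlated at 0.9978 and 0.9982 with the other untreated arrays and at 0.9831 to 0.9844 with the treated ones. Only 3 of 13 colon epithelium markers looked for were measured: LGALS4, a galectin of the gut, averaged 9.03 in treated and 9.54 in untreated arrays, MUC13 averaged 8.93 in treated and 7.97 in untreated arrays, and the secreted mucin MUC2 averaged 5.67 in treated and 5.57 in untreated arrays.

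In treated cells these 10 genes shifted unevenly. GALNT6 was 2.59-fold lower, GALNT12 1.95-fold lower and GALNT11 1.61-fold lower, with smaller falls of GALNT5 and GALNT1. GALNT7 was 1.5-fold higher and GALNT14 was 1.34-fold higher. GALNT2, GALNT3 and GALNT4 did not pass the test. A gene was called where limma's adjusted p was under 0.05, which gave 7 of the 10 genes, 2 higher and 5 lower, against 34.8% of all probe sets (18% higher and 16.8% lower). The median log2 change was -0.20 over the 10 genes and -0.01 over all probe sets. Centring each array on its median moved the calls over all probe sets to 197 higher and 311 lower, against 227 and 211, and left the 10 genes at 2 higher and 5 lower. The genes were chosen with earlier results of these data known. None of the 8 other GALNT genes on the array was called in this fit. The share called is therefore lower over all GALNT genes of the array, and the count describes these 10 genes only. Over all genes, each standing by 1 probe set, 37.3% were called.

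**Figure D1:**
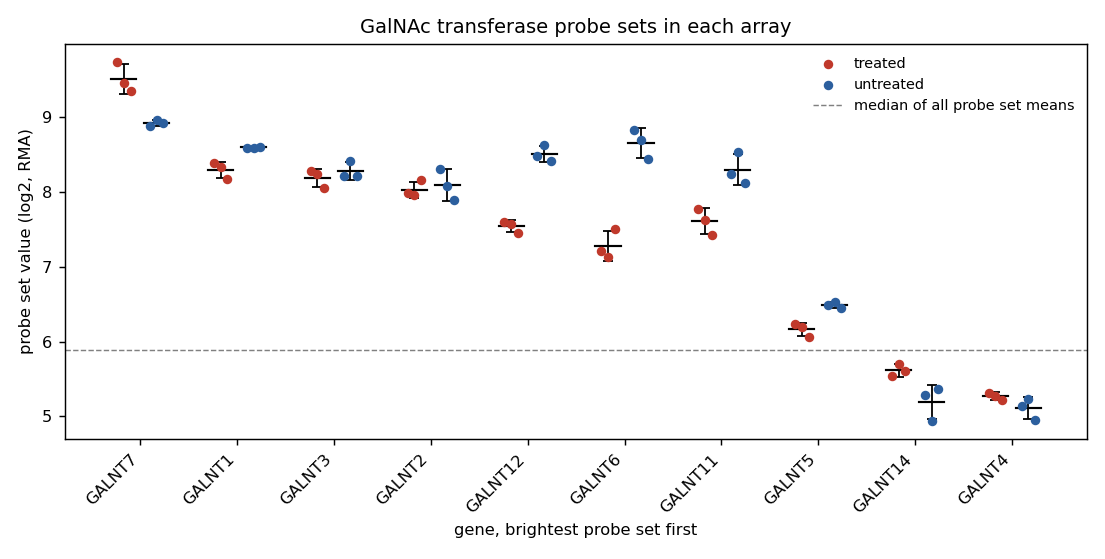
Log2 RMA value of each of the 10 GALNT probe sets (vertical axis) in the 3 treated and 3 untreated arrays, with bars for the group mean and SD and genes ordered from the brightest to the dimmest probe set. GALNT6, GALNT11 and GALNT12 have treated values well below their untreated values, GALNT7 has treated values above 9.3 against untreated values below 9, and the groups of GALNT2, GALNT3 and GALNT4 overlap.

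DNA methylation sits mainly at cytosines that are followed by guanine (CpG sites). The DNA before the start of each gene differed widely in how many of these sites it held. RefSeq promoter windows (GRCh38.p14) matched 7 of the 10 genes, with 10 windows. None matched GALNT4, GALNT5 or GALNT6, so the gene with the largest change, GALNT6, is not covered. Counted over the 250 bases before each start, windows of genes on this array held a median of 16 CpG sites and all RefSeq windows a median of 11, and 93.9% of all windows held at least 1. The windows of 2 genes that fell and 2 that rose are shown, 5′ to 3′ on the strand of the gene, because both directions of change then include a window with few CpG sites and one with more. Each CG is in capitals. CG reads the same on both strands, so 1 count covers both.
GALNT12, chr9:98807420-98807669, plus strand: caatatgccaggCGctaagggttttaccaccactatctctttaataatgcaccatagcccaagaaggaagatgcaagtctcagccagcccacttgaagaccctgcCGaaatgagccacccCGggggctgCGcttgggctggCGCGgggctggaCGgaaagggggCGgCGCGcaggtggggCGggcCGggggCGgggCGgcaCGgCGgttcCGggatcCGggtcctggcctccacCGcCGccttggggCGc
GALNT11, chr7:152074787-152075036, plus strand: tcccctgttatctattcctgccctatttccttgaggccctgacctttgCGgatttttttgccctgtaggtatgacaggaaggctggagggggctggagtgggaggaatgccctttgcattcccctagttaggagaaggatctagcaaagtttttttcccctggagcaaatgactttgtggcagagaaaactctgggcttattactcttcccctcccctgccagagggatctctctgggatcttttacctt
GALNT7, chr4:173168561-173168810, plus strand: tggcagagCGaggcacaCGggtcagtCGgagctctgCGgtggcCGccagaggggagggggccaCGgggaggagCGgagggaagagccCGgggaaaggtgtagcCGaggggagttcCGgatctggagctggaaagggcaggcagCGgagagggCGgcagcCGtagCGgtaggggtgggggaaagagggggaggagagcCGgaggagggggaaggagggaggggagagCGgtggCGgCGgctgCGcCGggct
GALNT14, first window, chr2:31129641-31129890, minus strand: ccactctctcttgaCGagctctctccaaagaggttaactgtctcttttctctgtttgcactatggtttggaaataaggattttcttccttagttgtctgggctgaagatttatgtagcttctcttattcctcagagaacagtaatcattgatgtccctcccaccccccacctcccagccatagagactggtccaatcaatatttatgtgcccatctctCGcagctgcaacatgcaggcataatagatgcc
GALNT14, second window, chr2:31138441-31138690, minus strand: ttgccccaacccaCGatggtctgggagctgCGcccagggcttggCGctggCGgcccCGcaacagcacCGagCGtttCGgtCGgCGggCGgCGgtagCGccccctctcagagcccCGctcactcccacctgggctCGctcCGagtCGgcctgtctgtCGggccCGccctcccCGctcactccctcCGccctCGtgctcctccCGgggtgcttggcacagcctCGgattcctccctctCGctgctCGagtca

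GALNT12, which fell, held 21 CpG sites and GALNT7, which rose, held 20, and 62.9% and 60.6% of the array genes' windows held as many or fewer. GALNT11, which also fell, held 1, a count at or below which 9.06% of those windows lay. GALNT14 had 2 windows, which held 2 and 26 CpG sites. Of the genes not shown, GALNT2 held 42 sites and GALNT3 held 26, and neither was called. GALNT1, which fell, had 3 windows with 4, 39 and 52 sites. Windows were found for 727 of the 927 genes on the array, and whether they cover every start of a gene was not checked. Methylation was not measured and which start the cells used is not known, so a relation between CpG number and change was not tested.

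GALNT6, a close relative of GALNT3 that glycosylates fibronectin among other proteins, showed the largest change of the 10. Its values were 7.21, 7.13 and 7.51 in the treated arrays, against 8.83, 8.69 and 8.44 in the untreated arrays. All treated values lay more than 0.9 below the lowest untreated one, which was that of replicate 3. The log2 change was -1.37 ± 0.12 (SE, limma, 3 arrays per group, adjusted p = 7.99e-06). Only 5 of the 1259 probe sets had a more negative change. The name of its probe set ends in a mark for sets that can bind transcripts of more than 1 gene, so its values are less certain for that reason. GALNT3 itself, which glycosylates the phosphate hormone FGF23 and shields it from cleavage, was at 8.27, 8.24 and 8.05 in treated arrays, against 8.22, 8.42 and 8.21 in untreated arrays. Its groups overlapped, and the log2 change of -0.09 had a 95% interval of -0.29 to 0.10 (adjusted p = 0.487). That interval and the interval of GALNT6, -1.64 to -1.11, do not overlap. A difference between the changes of these relatives was not tested directly.

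GALNT12, an isoenzyme of the digestive tract, had the tightest values among the large falls. It was at 7.60, 7.58 and 7.45 in treated arrays, against 8.48, 8.63 and 8.41 in untreated arrays. The gap between the groups was several times the SD of either, which was 0.08 in treated and 0.11 in untreated arrays. The log2 change was -0.96 ± 0.08 (SE, adjusted p = 5.95e-06).

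GALNT11, which glycosylates Notch1 and the linkers between ligand-binding repeats of the LDL receptor family, also fell. It was at 7.78, 7.62 and 7.43 in treated arrays, against 8.24, 8.53 and 8.12 in untreated arrays. The groups did not overlap, and replicate 3 was the lowest of each. Its log2 change was -0.69 ± 0.12 (SE, adjusted p = 0.00084), and 10.6% of all probe sets changed by as much or more in either direction.

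Of the broadly expressed isoenzymes that act on bare peptide, GALNT1 fell and GALNT2 was not called. GALNT1 was at 8.38, 8.33 and 8.17 in treated arrays, against 8.59, 8.59 and 8.60 in untreated arrays, the narrowest untreated group of the 10. It was 1.23-fold lower (log2 change -0.30 ± 0.08 SE, adjusted p = 0.00964). This call was lost after quantile normalization (adjusted p = 0.0591, range over 13 alternatives 0.00365 to 0.0591). GALNT2, which modifies several proteins of blood lipid transport, was at 7.98, 7.96 and 8.15 in treated arrays, against 8.31, 8.08 and 7.89 in untreated arrays. These groups overlapped, and the 95% interval of the log2 change was -0.30 to 0.17 around -0.06 (adjusted p = 0.724). Without untreated replicate 1 its sign turned, at a log2 change of 0.046.

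GALNT5, another isoenzyme that acts on bare peptide, fell by a similar amount to GALNT1. It was at 6.23, 6.19 and 6.06 in treated arrays, against 6.49, 6.52 and 6.45 in untreated arrays. The groups were apart, and it was 1.25-fold lower (log2 change -0.33 ± 0.07 SE, adjusted p = 0.00493).

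GALNT7, which adds GalNAc to peptides that already carry one, was the brightest of the 10 and the only bright one of them that rose. It was at 9.74, 9.45 and 9.35 in treated arrays, against 8.88, 8.96 and 8.92 in untreated arrays. Every treated value was higher than every untreated one, and treated replicate 1 stood above the other two. The log2 change was 0.59 ± 0.10 (SE, adjusted p = 0.000734). GALNT4 also favours peptides that already carry GalNAc and acts on PSGL-1, a selectin ligand of leukocytes. It was dim, at 5.32, 5.28 and 5.22 in treated arrays, against 5.14, 5.24 and 4.95 in untreated arrays. One untreated value lay within the treated range, and the log2 change of 0.16 had a 95% interval of -0.03 to 0.35 (adjusted p = 0.18). RefSeq lists a read-through transcript of POC1B and GALNT4 that overlaps GALNT4, and whether this probe set also measures it was not tested.

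GALNT14, which glycosylates death receptors for the ligand TRAIL, lay at the dim end of the range and rose. It was at 5.53, 5.71 and 5.60 in treated arrays, against 5.28, 4.94 and 5.37 in untreated arrays. The groups were separated by less than 0.2, between treated replicate 1 and untreated replicate 3. The log2 change was 0.42 ± 0.11 (SE, adjusted p = 0.0116). The call was lost without treated replicate 2 (adjusted p = 0.05003) and in an ordinary equal-variance test (adjusted p = 0.115), in a range over 13 alternatives of 0.00574 to 0.115. Its probe set carries the same mark for shared binding as that of GALNT6.

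The treated and untreated values were fully apart in all 7 called genes, 2 higher and 5 lower, as they were in 46.1% of all probe sets (22.7% higher and 23.4% lower). Replicate 3 of either group was the lowest of its group in 7 of the 10 genes. Each array measured RNA of a whole culture, so fewer expressing cells and less RNA per cell cannot be told apart.

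Bright and dim isoenzymes were then compared. A probe set was counted as bright where its mean over the 6 arrays was at or above 5.89, the median of all probe set means, and as dim below it. Probe sets differ in how well they bind, so brightness is a place on the signal scale and not an amount of transcript. By this cut 8 of the 10 genes were bright, from GALNT7 at a mean level of 9.22 down to GALNT5 at 6.33, and GALNT14 (5.41) and GALNT4 (5.19) were dim. From GALNT1 (8.44) through GALNT3 (8.23), GALNT2 (8.06), GALNT12 (8.02) and GALNT6 (7.97) to GALNT11 (7.95) the levels lay within 0.5 of each other, and the values of each neighbouring pair overlapped over the 6 arrays.

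**Figure D2:**
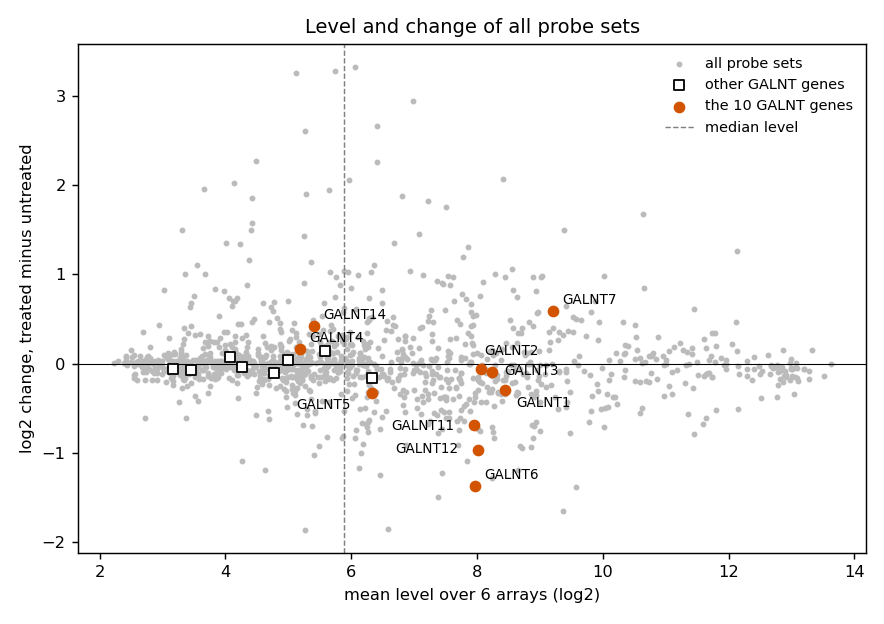
Mean level over the 6 arrays (horizontal axis, log2) against the log2 change, treated minus untreated (vertical axis), for all 1259 probe sets in grey, the 10 GALNT genes in orange and the other 8 GALNT genes as open squares. The dashed line marks the median level of 5.89; the falls of GALNT6, GALNT12 and GALNT11 all lie near a level of 8, among bright probe sets.

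Of the 8 bright genes 1 rose, 5 fell and 2 were not called, and of the 2 dim genes GALNT14 rose and GALNT4 was not called. Among all bright probe sets 46% were called (20.2% higher and 25.9% lower), and among all dim ones 23.5% (15.9% higher and 7.63% lower). In this fit without centring, falls thus outnumbered rises among bright probe sets at large, and rises outnumbered falls among dim ones. Median centring moved the calls over all probe sets toward falls, and its calls were not counted by side. The median log2 change was -0.31 for the bright and 0.29 for the dim GALNT genes, against -0.06 for all bright and 0.01 for all dim probe sets. The difference between the medians of bright and dim GALNT genes, -0.60, rests on 2 dim genes. It was given no test.

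The dim side can be filled out with the 8 other GALNT genes on the array, none of which was called by limma and 1 of which had an unadjusted p under 0.05. The ordinary equal-variance test called 0 of the 8 as well. GALNT18 was the only bright one, at a level of 6.32. It averaged 6.24 ± 0.03 in treated and 6.41 ± 0.07 in untreated arrays (SD, n = 3 each), and its groups did not overlap (adjusted p = 0.0953). With array medians centred, GALNT18 was called lower (adjusted p = 0.0213, range over 13 alternatives 0.0213 to 0.288). GALNT16 averaged 5.66 in treated and 5.52 in untreated arrays, also without overlap (adjusted p = 0.194). GALNT17, GALNT9, GALNT8, GALNT13, GALNTL5 and GALNT15 had levels of 4.99 down to 3.17 and log2 changes between -0.10 and 0.08. Over all 18 GALNT genes the bright side then had 1 rise and 5 falls among 9 genes, and the dim side 1 rise and no fall among 9. The median size of the log2 change, leaving its sign aside, was 0.33 on the bright and 0.08 on the dim side of the family, against 0.22 and 0.10 over all probe sets. RMA compresses differences of dim probe sets, and no detection calls were used, so a dim gene that did not pass the test may still have changed.

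**Figure D3:**
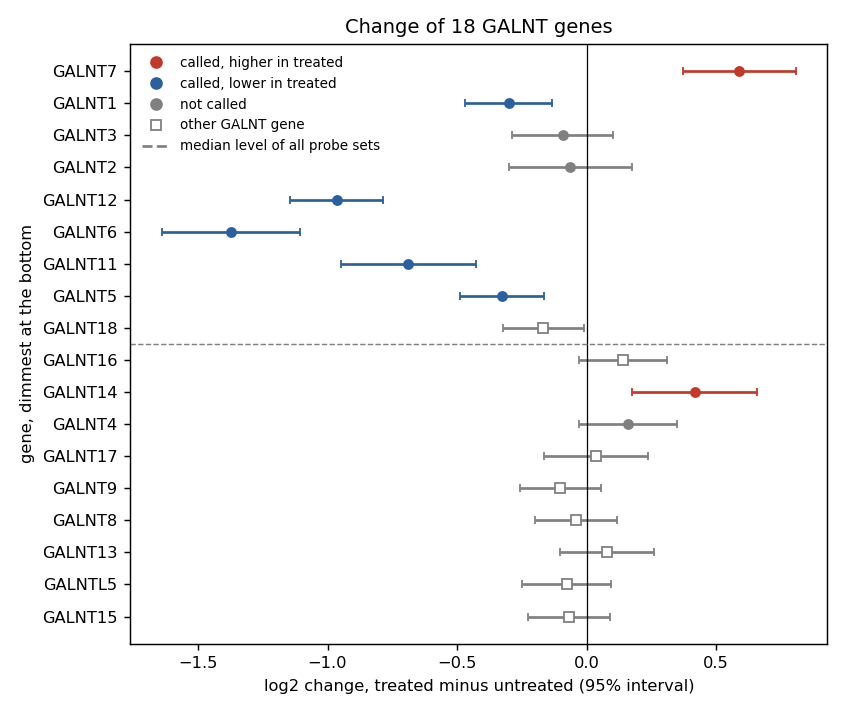
Log2 change, treated minus untreated, with its 95% interval (horizontal axis) for 18 GALNT genes, from the brightest probe set at the top to the dimmest at the bottom, with open squares for the 8 genes outside the 10. Above the dashed median level 5 genes are called lower and 1 higher; below it GALNT14 is the only call.

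Genes of the steps around the first GalNAc were read beside the family, with 37.3% of all genes called (19.7% higher and 17.6% lower). Among 12 measured genes of O-glycan core building, core extension and capping with sialic acid, 4 rose and 3 fell. Their median log2 change was -0.03. It turned positive without untreated replicate 2, untreated replicate 3 or treated replicate 2 (0.019, 0.0039 and 0.014). Quantile normalization and median centring each gave 4 rises and 4 falls, with medians of -0.097 and -0.094. ST6GALNAC2, which caps O-linked GalNAc with sialic acid, was at 8.52, 8.52 and 8.64 in treated arrays, against 7.63, 7.75 and 7.55 in untreated arrays, 1.89-fold higher (adjusted p = 6.34e-06). C1GALT1, which makes core 1, averaged 5.35 ± 0.17 in treated and 4.65 ± 0.15 in untreated arrays (adjusted p = 0.000291). GCNT1, an enzyme that makes core 2 branches, averaged 5.90 ± 0.10 in treated and 6.61 ± 0.21 in untreated arrays (adjusted p = 0.000361). The other calls, named after their values were seen, were rises of GCNT3 (log2 change 0.54) and ST3GAL1 (0.33) and falls of ST6GALNAC4 (-0.43) and B3GNT3 (-0.37). GCNT3 shares its family name with GCNT1 and moved the other way, so a fall of core 2 branching is not shown.

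UDP-GalNAc is the donor that all GALNT enzymes use. A list for its synthesis and for the transport of sugar donors had 9 measured genes. Of these, 4 rose and 1 fell, with a median log2 change of 0.14. Centring on array medians gave 2 rises and 2 falls in this list and a median of 0.068. The ordinary equal-variance test, or leaving out untreated replicate 3 or treated replicate 1, gave 2 rises and 1 fall. An intensity trend, a replicate block, or leaving out untreated replicate 1 or treated replicate 2 gave 3 rises and 1 fall. Quantile normalization gave 5 rises and 1 fall. Leaving out treated replicate 3, or using array weights, gave 4 rises and 2 falls. GFPT2, a form of the enzyme that commits fructose 6-phosphate to hexosamine synthesis, was at 7.48, 7.67 and 7.47 in treated arrays, against 5.54, 5.24 and 5.07 in untreated arrays (adjusted p = 1.94e-07). UAP1, which joins the sugar to UDP, averaged 9.06 ± 0.11 in treated and 8.59 ± 0.06 in untreated arrays (adjusted p = 0.000782). GNPNAT1, an acetyltransferase of the same route, was the fall, at 9.21 ± 0.10 in treated and 9.64 ± 0.10 in untreated arrays (adjusted p = 0.00195). Rises of GFPT1 (log2 change 0.40, limma adjusted p = 0.0163) and of SLC35D2 (0.23, adjusted p = 0.0420), a transporter gene for sugar donors, were named after their values were seen. The other measured transporter genes, SLC35A2 and SLC35D1, were not called by limma (adjusted p = 0.165 and 0.909). A rise of UDP-GalNAc transport is therefore not shown.

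Among the mucins, the best known carriers of these glycans, 3 of 11 measured genes rose and 1 fell (3 and 2 after quantile normalization or median centring). Their median log2 change was 0.10, against 0.062 without untreated replicate 2, 0.024 after quantile normalization and 0.034 after median centring. MUC13, a membrane mucin of the gut, was 1.95-fold higher (adjusted p = 6.15e-06), and MUC1 was at 8.44, 8.20 and 8.87 in treated arrays, against 7.16, 7.17 and 7.27 in untreated arrays (adjusted p = 3.3e-05). MUC20 averaged 5.03 ± 0.11 in treated and 5.95 ± 0.27 in untreated arrays (adjusted p = 0.000163). MUC4 also rose, by a log2 change of 0.62, and was named after its value was seen.

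**Figure D4:**
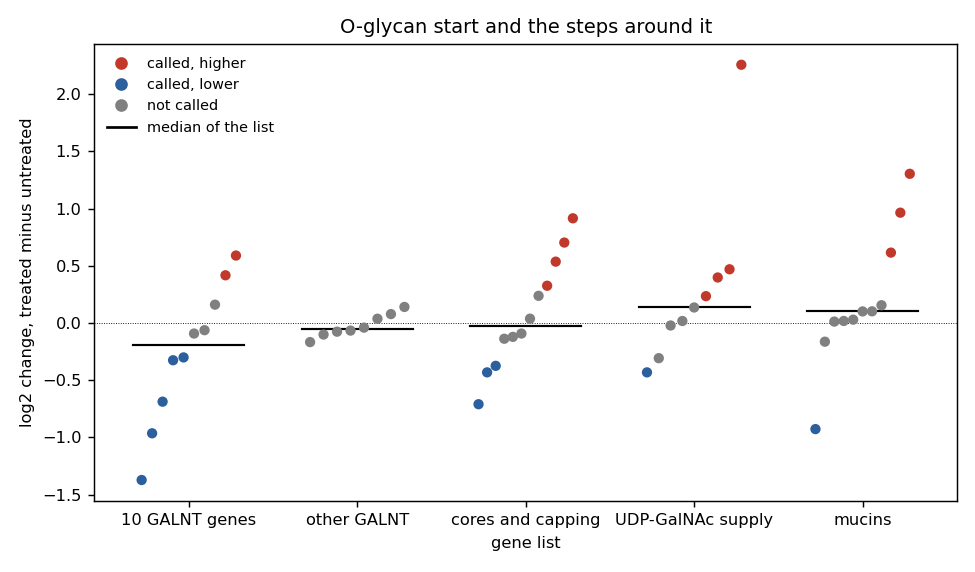
Log2 change, treated minus untreated (vertical axis), of each measured gene in 5 lists, with a bar at the median of each list. The 10 GALNT genes have the lowest median, -0.20, the other GALNT genes lie close to 0 with no call (GALNT18 was called after median centring), and the lists of cores and capping, UDP-GalNAc supply and mucins hold rises and falls.

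Markers of other cell types were dim. The mean levels of GALNT14 (5.41) and GALNT4 (5.19) lay within the range of the leukocyte genes among them. Of 7 measured leukocyte genes, with levels of 2.84 to 5.86, CD33 rose (log2 change 0.57) and CD22 fell (-0.25), the fall being lost without untreated replicate 2 (adjusted p = 0.0527, range over the alternatives 0.00528 to 0.0527). Of 5 measured stromal and endothelial genes, with levels of 2.50 to 5.13, ANGPT2 (0.74) and PECAM1 (0.30) rose. The PECAM1 groups overlapped, and its call (adjusted p = 0.0403, range over the alternatives 0.0142 to 0.173) was lost in the ordinary test, with centred medians, and when replicate 1 or 2 of the untreated or replicate 1 or 3 of the treated arrays was left out. Each of these left 1 rise. All 6 arrays were of HCT-15 cells, and what the signals of these marker genes reflect was not tested.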

How the data were processed

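Per the labels' protocols, total RNA extracted with Trizol was turned into biotinylated cRNA for Affymetrix arrays. The log2 values of 6 arrays and 1259 probe sets were deposited by the authors as 1 table. The tool named, per the submitters' processing notes, is RMA, a method of background correction, normalization and probe summary. The sources used here give no version, platform or genome build. The log2 scale was taken from the range of values, 2.13 to 13.67. Arrays were grouped by source name. No pair of arrays shared more than 5 identical values.

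RefSeq transcripts in the probe set names were matched to symbols (GRCh38.p14, names only), giving 1043 probe sets and 927 genes, each gene standing by its probe set with the highest mean. Promoter sequences are from RefSeq (GRCh38.p14).

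Limma 3.58.1 in R 4.3.3 was fitted to all 1259 probe sets (lmFit, eBayes, treated minus untreated, two-sided, Benjamini-Hochberg over all). No filter was used. The steps were tested on simulated data. Alternatives were quantile normalization, median centring, leaving out the 420 dimmest probe sets, an intensity trend, array weights, a block for replicate number, an ordinary equal-variance test, other thresholds and leaving out each array.

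The genes named were the 10 members, the other GALNT genes, and, from each other list, up to 3 called genes by smallest p. Members and lists were chosen with earlier results of these data known.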

Additional observations from a re-analysis of the deposited data

How the results depend on the processing

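Of the 10 genes, 6 or 7 were called under each of the 13 alternatives to the fit and at adjusted p thresholds of 0.01 and 0.1, and GALNT5, GALNT6, GALNT7, GALNT11 and GALNT12 kept their call and direction in all 13. GALNT1 was lost after quantile normalization, and GALNT14 in the ordinary equal-variance test and without treated replicate 2. GALNT2, not called, turned to a log2 change of 0.046 without untreated replicate 1 and lay between -0.17 and 0.046 as each array was left out. The causes were not tested. Over all probe sets 344 to 508 were called, against 438, and leaving out 1 array gave 376 to 440. Leaving out untreated replicate 3, whose title says treated against its source name, 7 of the 10 were called, 2 higher and 5 lower. The difference between the medians of bright and dim genes stayed between -0.65 and -0.56, under alternatives added after the data were seen. Median centring, the intensity trend, the replicate block and leaving out the dimmest probe sets cannot move this difference. The range thus comes from quantile normalization, array weights and leaving out single arrays. Taking the level from the untreated arrays gave the same 8 bright and 2 dim genes, and so the same difference of -0.60. Levels above 7.30 were also to be compared with levels below 4.90, which cut the probe sets into 3 equal parts. This gave no value, since 0 of the 10 genes lay below 4.90.

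With the replicate number as a block 394 probe sets were called, and of the 10 genes 7, 2 higher and 5 lower. Same-numbered arrays deviated from their group means with correlations of -0.27, 0.04 and -0.11. By these deviations untreated replicates 1, 2 and 3 correlated best with treated replicates 3, 1 and 2, so 0 of the 3 with its own number. Deviations from means of only 3 arrays cannot settle whether the numbers pair the arrays. The 3 arrays per group limit the precision, and with no background signal or detection calls used, a dim value cannot be set against its background.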
